A study of Mus musculus with 2 samples.

Results

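The 8 genes described here encode the subunits of AP-1 (activator protein 1), a transcription factor built from pairs of proteins: Fos, Fosb, Fosl1, Fosl2, Jun, Junb, Jund and Atf3. They were taken by name from a deposited table of 21937 mouse genes, and all 8 have a row with reads in it. The cells were wild-type embryonic stem (ES) cells of the strain 129Sv-C57Bl/6, kept free of feeder cells, and messenger RNA was read by sequencing. One group received 500 nM ICRF-193 for 16 h, starting 32 h after seeding. The other received the solvent DMSO on the same schedule. ICRF-193 blocks the catalytic cycle of topoisomerase II, which passes one DNA duplex through another. It acts on the proteins of both Top2a and Top2b, so the comparison does not separate these forms, and the single time point shows the state after 16 h rather than any earlier pulse.

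AP-1 proteins carry a basic region that holds DNA and a leucine zipper that joins a pair. JUN proteins pair with each other or with a FOS protein, whereas FOS proteins need a partner from the JUN or ATF proteins to bind DNA. The pairs bind the motif TGANTCA, called the TRE, or the longer TGACGTCA, called the CRE. Fos, Fosb, Jun and Junb are immediate early genes, switched on within minutes by growth factors and stress through MAP kinases, and Atf3 is switched on by stress, by the transcription factor ATF4 and by p53.

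Each group held 3 libraries. The deposited table gives group means in normalised reads, which are reads divided by a size factor for the depth of each library. The whole reads of each library were worked back from the digits of these means, and the letters A, B and C name the libraries of a group by decreasing size factor. These letters are names, not replicate numbers. Totals of the recovered reads ran from 26869609 to 31259296 in ICRF-193 and from 30291937 to 43010515 in DMSO. In both groups library A stood apart from B and C, so values within A and within B and C are given beside the pooled ones. Of the 8 ES cell markers, 7 could be summed by library, to 64628, 69955 and 71499 normalised reads in ICRF-193 libraries A, B and C and to 100505, 108321 and 101833 in DMSO. Whether replicates were separate cultures is not stated in the labels; the p-values reflect the spread among these libraries alone, and this may be technical.

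The promoters of Fos, Jun and Atf3 are shown because a pair of these genes passed the test below and all hold a relative of the motifs that AP-1 and CREB proteins bind. A promoter entry was found for 7 of the 8 subunits, all but Fosl1, in the RefSeq table of build GRCm38.p6, while the deposited data use mm9. Each line gives the 250 bases before the annotated start, 5' to 3' on the strand of the gene, at chr12:85473640-85473889 (plus strand) for Fos, chr4:95052223-95052472 (minus strand) for Jun and chr1:191183334-191183583 (minus strand) for Atf3. Capitals mark a CRE with at most 1 changed base in all of them, the TATA box TATAAA in Fos and the site TTACCTCA in Jun.
Fos: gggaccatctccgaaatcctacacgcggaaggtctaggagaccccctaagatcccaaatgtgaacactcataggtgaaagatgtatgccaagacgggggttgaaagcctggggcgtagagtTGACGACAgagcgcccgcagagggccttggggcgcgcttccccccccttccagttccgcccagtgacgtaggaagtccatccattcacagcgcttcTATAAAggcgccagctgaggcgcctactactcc
Jun: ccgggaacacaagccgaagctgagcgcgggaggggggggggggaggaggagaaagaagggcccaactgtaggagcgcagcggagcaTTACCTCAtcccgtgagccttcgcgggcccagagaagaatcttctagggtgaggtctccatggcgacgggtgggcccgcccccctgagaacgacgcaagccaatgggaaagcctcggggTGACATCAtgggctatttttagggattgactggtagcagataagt
Atf3: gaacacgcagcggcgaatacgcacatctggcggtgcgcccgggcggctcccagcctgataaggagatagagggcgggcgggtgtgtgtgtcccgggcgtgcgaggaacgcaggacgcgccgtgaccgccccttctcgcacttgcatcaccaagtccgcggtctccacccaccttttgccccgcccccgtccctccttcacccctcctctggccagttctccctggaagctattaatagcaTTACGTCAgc

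Motifs were searched on both strands in windows from 250 bases before to 50 after the start. The TRE TGANTCA, the CRE TGACGTCA and the CArG box, which serum response factor binds, had no match in the 7 windows. They had a match in 7.81%, 1.79% and 1.63% of all 32851 promoters. Sites further upstream, and CREs with more than 1 changed base, were not searched. No match here thus does not mean that a gene lacks such a site. The looser CRE, chosen after the sequences were seen and counting exact matches too, was held by 12.5% of all promoters. It began 129 bases before the start in Fos, 45 before it in Jun and 10 before it in Atf3. The Jun match TGACATCA and the upstream match TTACCTCA, which began 164 bases before the start and was held by 0.889% of all promoters, spell the proximal and distal sites through which JUN and ATF proteins are known to act on Jun itself. The TATA box was held by 13.6% of all promoters, and lay 33 bases before the start in Fos and at the start itself in Junb. No letters of one capitalised match are shared with another.

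The comparison asks how transcripts of the AP-1 subunits differed after topoisomerase II was inhibited. Fosl1, Jun and Atf3 were higher in ICRF-193, by 8.72-fold, 1.70-fold and 1.81-fold. In each of these genes, all 3 ICRF-193 libraries lay above all 3 DMSO libraries. Fos had a mean 2.43-fold higher in ICRF-193 but its groups overlapped, because the libraries A were far above the others. Jund, the most abundant subunit in DMSO, was at 0.885 of its DMSO mean, and Junb at 1.16-fold. In bulk RNA, fewer or more cells with a transcript and less or more of it per cell cannot be told apart.

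By the authors' deposited DESeq test, at an adjusted p under 0.05 over all 18759 genes with reads, 3 of the 8 subunits (37.5%) were called higher, 0 lower and 5 were not called. Over all genes 5.97% were called higher and 1.26% lower, 7.23% in all. At an unadjusted p under 0.05 the same test gave the same 3 higher and 0 lower, beside 11.5% of all genes higher and 5.38% lower, 16.9% in all, at that unadjusted threshold. The median log2 fold change of the 8 was 0.74, beside -0.00 over the 17705 genes with reads in both groups. The groups of 3 libraries did not overlap for 3 of the 8 subunits, all higher in ICRF-193, and 17.8% of all genes were higher and 15.4% lower in this way. The limma-voom fit on the recovered reads (linear modelling with weights for counting error) also called 3 higher and 0 lower, where 9.77% and 5.95% of the 14970 genes it tested were called.

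**Figure D1:**
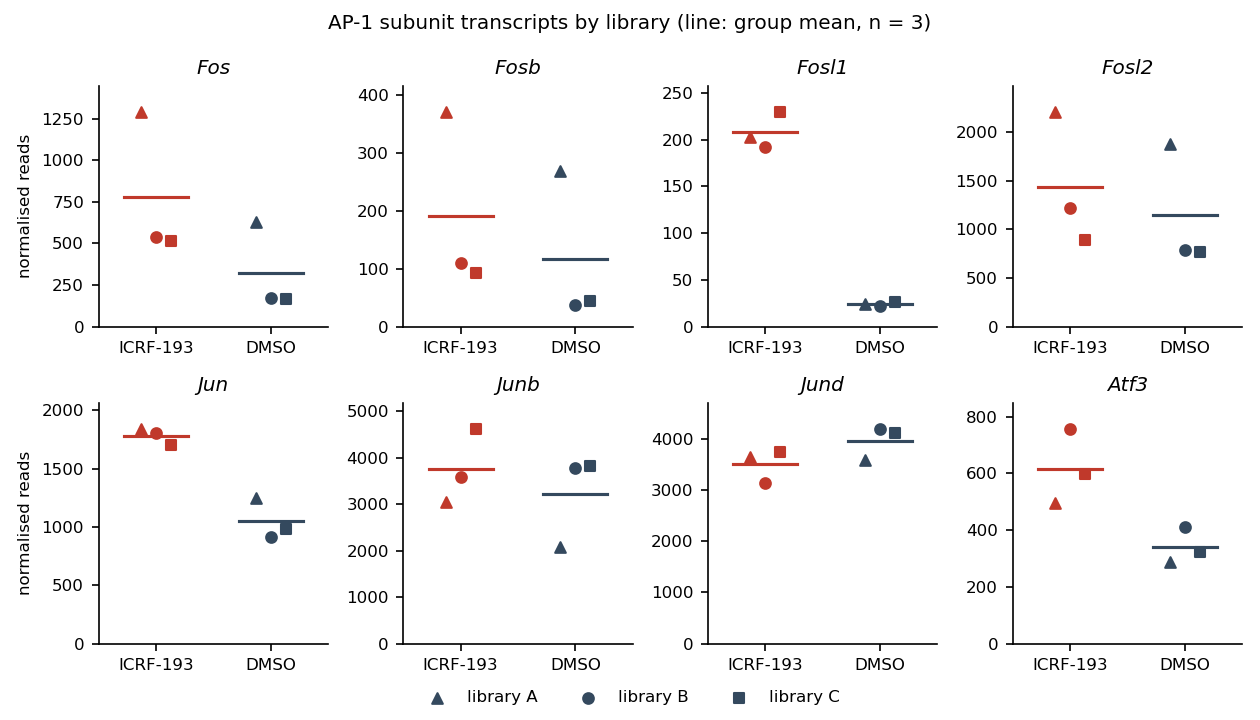
Normalised reads (y axis, linear, from 0) of each AP-1 subunit in every library, ICRF-193 left and DMSO right; triangles are libraries A, circles B, squares C, and lines are group means (n = 3). The groups are apart for Fosl1, Jun and Atf3, while in Fos, Fosb and Fosl2 the library A of each group lies above B and C.

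The FOS family held the widest contrast. Fosl1 encodes FRA1, a FOS protein that lacks the strong activation domain of FOS and is known from invasive and mesenchymal cells. It was at 203, 192 and 230 normalised reads in ICRF-193 libraries A, B and C, against 23.9, 21.8 and 25.9 in DMSO. The reads behind these were 202, 185 and 205 in ICRF-193 and 30, 22 and 24 in DMSO. Its groups lay far apart, and the library A of each group sat among the others. The means were 208 ± 19.7 in ICRF-193 and 23.9 ± 2.06 in DMSO (SD, n = 3 each), a log2 fold change of 3.12 (adjusted p = 2.31e-17 in the authors' deposited table). Among libraries A the fold was 8.49 and among B and C it was 8.83. In the limma-voom fits that left out each library in turn, Fosl1 was called each time, with a log2 fold change of 3.03 to 3.16 and an adjusted p of 0.00261 to 0.0174.

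Fosl1 lies on chromosome 19, and 1163 of its 1864 exonic bases in GENCODE M21 are shared with Ccdc85b on the opposite strand. The strand setting of the count is not given in the sources used here, so reads of these genes cannot be told apart there. Ccdc85b averaged 532.6 ± 67.9 normalised reads in ICRF-193 and 655.8 ± 109 in DMSO (SD, n = 3 each), a log2 fold change of -0.30 (adjusted p = 0.687 in the authors' deposited table).

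Fos encodes the founding member, an immediate early protein. Its values were 1293, 539 and 513 normalised reads in ICRF-193 libraries A, B and C, against 632, 171 and 163 in DMSO. DMSO-A lay above ICRF-193-B and ICRF-193-C, so the groups overlapped. ICRF-193-A lay above DMSO-A, and ICRF-193-B and ICRF-193-C both lay above DMSO-B and DMSO-C. The means of 781.6 ± 443 in ICRF-193 and 321.9 ± 269 in DMSO (SD, n = 3 each) gave a log2 fold change of 1.28 (adjusted p = 0.527 in the authors' deposited table). Among libraries A the fold was 2.05, and among B and C it was 3.15. Fos in library A was at 2.46 times the mean of B and C in ICRF-193, and at 3.79 times in DMSO.

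Fosb encodes an immediate early FOS protein that also has a shortened, long-lived form. It was at 370, 109 and 92.0 normalised reads in ICRF-193, against 268, 37.7 and 44.3 in DMSO. Here too the libraries A were the highest of their groups, by 3.69 times the mean of B and C in ICRF-193 and 6.54 times in DMSO. The fold was 1.38 among libraries A and 2.45 among B and C, and the pooled log2 fold change was 0.71 (adjusted p = 0.936 in the authors' deposited table).

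Fosl2 encodes FRA2, the close relative of FRA1. It stood at 2210, 1215 and 888 normalised reads in ICRF-193, and at 1882, 792 and 769 in DMSO. The groups overlapped through DMSO-A, and the fold of 1.25 (adjusted p = 0.960 in the authors' deposited table) was 1.17 among libraries A and 1.35 among B and C. The log2 fold change of Fosl2 without ICRF-193-A was -0.03 in limma-voom.

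A limma-voom fit with a term for the split of libraries A from the rest called 6 of the 8 subunits higher, namely Fos, Fosb, Fosl1, Fosl2, Jun and Atf3, and 0 lower. That fit called 27.1% of all genes higher and 32.6% lower, so that 59.7% passed it. In it the log2 fold change of Fos was 1.31 ± 0.125 (SE, adjusted p = 9.38e-06 by limma-voom), that of Fosb 0.74 (adjusted p = 0.00425) and that of Fosl2 0.33 (adjusted p = 0.0141). Without both libraries A, limma-voom called the same 6 subunits higher and Jund lower, where 24.1% of 14415 genes were called higher and 29.8% lower, 53.9% in all. The order of libraries rests on the same reads and the same split, so it is no separate support. ICRF-193-A exceeded DMSO-A, and ICRF-193-B and ICRF-193-C both exceeded DMSO-B and DMSO-C, in 6 of 8 subunits and in 29.9% of all genes. In either direction 61.4% of genes were so ordered. An interaction term in limma-voom tested whether libraries A had another effect of ICRF-193 than B and C. It called 0 of 14970 genes and 0 subunits, with 1158 genes and 4 subunits (Fos, Fosb, Jun and Junb) at an unadjusted p under 0.05. The lowest p of a subunit was 0.0037 for Fos (adjusted p = 0.334 by limma-voom).

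**Figure D2:**
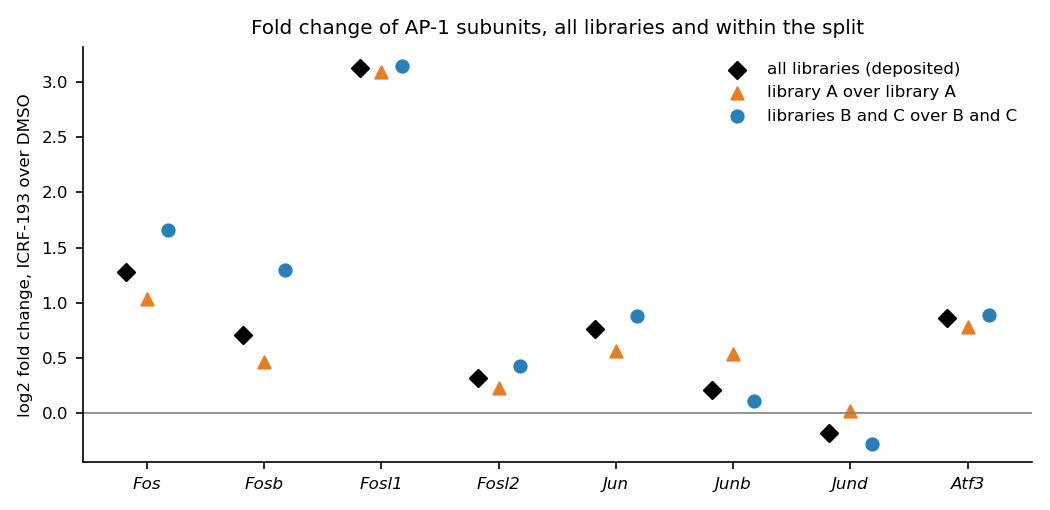
Log2 fold change, ICRF-193 over DMSO (y axis), of each AP-1 subunit: black diamonds use all libraries (deposited), orange triangles library A over library A, blue circles B and C over B and C. Fosl1 stays near 3.1 in all, Fos and Fosb lie higher among B and C, and Jund lies above 0 only among libraries A.

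Most fibroblast or feeder markers were high in the same libraries: 7 of 10 had library A as the highest in both groups, and 1, Thy1, had it as the lowest in both. Library A was also the highest in both groups for 8 of 11 transcription factors of the Fos and Jun promoters and 8 of 16 other immediate early genes. It was so for 0 of 8 keratinocyte markers. The share over all genes was not counted, so the count of 7 of 10 alone does not set these markers apart. The summed normalised reads of these 10 genes were 21740, 3814 and 3102 in ICRF-193 libraries A, B and C, and 19060, 2195 and 2255 in DMSO. Col1a1, which encodes type I collagen, led them with means of 6137 in ICRF-193 and 4902 in DMSO. The fibroblast proteoglycan genes Lum, at 0.335 in ICRF-193 and 0.331 in DMSO, and Dcn, at 8.66 in ICRF-193 and 12.3 in DMSO, were near 0. Thy1 was at 353, 381 and 469 in ICRF-193 and at 185, 281 and 311 in DMSO. Primitive endoderm markers (8 genes, of which Pdgfra is on both lists) had library A as the highest in both groups for all 8, and summed to 13598, 4525 and 5585 in ICRF-193 and to 17141, 3664 and 5127 in DMSO. None of the 10 or of the 8 was called by the authors' deposited test, while 1 (Thy1, higher) and 0 of them passed an unadjusted p under 0.05, and limma-voom with the group term alone called none of either list. In the fits that called Fos, Fosb and Fosl2, some fibroblast markers were called higher: 4 of 9 with the split term and 6 of 8 without libraries A. Endoderm markers called higher were 1 of 8 with the split term and 3 of 8 without libraries A. These counts stand beside the 27.1% and 24.1% of all genes given above, and 1 of 8 lies below the first share. The part of fibroblast or endoderm cells in the values of Fos, Fosb and Fosl2 was not tested.

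Among the JUN genes only Jun was called. Jun, the chief transactivating partner in AP-1, was at 1842, 1807 and 1701 normalised reads in ICRF-193 libraries A, B and C, against 1246.5, 918 and 983 in DMSO. The lowest ICRF-193 library thus lay above the highest DMSO library, and the ICRF-193 libraries were close to each other. Its means were 1783 ± 73.3 in ICRF-193 and 1049 ± 174 in DMSO (SD, n = 3 each), a log2 fold change of 0.77 (adjusted p = 0.0377 in the authors' deposited table). The fold was 1.48 among libraries A and 1.85 among B and C. In limma-voom fits that left out 1 library, the call of Jun held without ICRF-193-A (adjusted p = 0.0396) and without DMSO-A (adjusted p = 0.00647). It was lost without ICRF-193-B (0.0847), ICRF-193-C (0.0676), DMSO-B (0.0768) or DMSO-C (0.0689), all as adjusted p.

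Junb, a JUN protein that is a weaker activator and can hold back JUN, was at 3036, 3585 and 4619 normalised reads in ICRF-193 and at 2086, 3775 and 3816 in DMSO. The groups overlapped, and here the library A of each group was its lowest. The log2 fold change was 0.22 (adjusted p = 0.833 in the authors' deposited table), with a fold of 1.46 among libraries A and 1.08 among B and C. Without DMSO-A the log2 fold change of Junb was -0.04 in limma-voom.

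Jund encodes the JUN protein that is present in resting cells and is no immediate early gene. Jund was at 3649, 3137.5 and 3739 normalised reads in ICRF-193, and at 3586, 4194 and 4110 in DMSO. The groups overlapped through DMSO-A, and the log2 fold change was -0.18 (adjusted p = 0.875 in the authors' deposited table). Among libraries A the fold was 1.02, and among B and C 0.828, which limma-voom without libraries A called lower (adjusted p = 0.0148). A total of 877 of its 1668 exonic bases lie under an antisense transcript, so strand matters here as for Fosl1.

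Atf3, a stress-induced protein that can pair with JUN proteins and represses many of its targets, was at 496, 757 and 598 normalised reads in ICRF-193 libraries A, B and C. In DMSO it was at 288, 410 and 322. The lowest ICRF-193 library lay above the highest DMSO library. The means of 617 ± 132 in ICRF-193 and 340 ± 62.7 in DMSO (SD, n = 3 each) gave a log2 fold change of 0.86 (adjusted p = 0.0146 in the authors' deposited table). Its fold was 1.72 among libraries A and 1.85 among B and C. Leaving out 1 library in limma-voom kept the call without ICRF-193-A (adjusted p = 0.0331) and ended it without ICRF-193-B (0.136), ICRF-193-C (0.127), DMSO-A (0.0660), DMSO-B (0.0818) or DMSO-C (0.126), all as adjusted p.

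Levels were set side by side as normalised reads per kb of exon, with GENCODE M21 lengths on GRCm38, since the annotation used by the authors is not given in the sources used here. Jund was highest in both groups, at 2103 ± 195 per kb in ICRF-193 and 2376 ± 198 in DMSO, and Junb followed at 2071 ± 444 in ICRF-193 and 1783 ± 546 in DMSO (SD, n = 3 each). These neighbours overlapped in ICRF-193, but in DMSO every Jund library was above every Junb library. Jun came next, at 559 ± 23.0 per kb in ICRF-193 and 329 ± 54.6 in DMSO, but Fos in ICRF-193-A was above all its ICRF-193 libraries, and in DMSO-A both Fos (299.8 per kb) and Fosl2 (288.0) were above Jun in DMSO-B (287.8). In ICRF-193 the next were Fos at 371 ± 210, Atf3 at 286 ± 61.1 and Fosl2 at 220 ± 105, whose libraries overlapped. In DMSO the same 3 genes came as Fosl2 at 176 ± 97.3, Atf3 at 158 ± 29.1 and Fos at 153 ± 127, overlapping too. By full exon length, Fosl1 was next to lowest at 112 ± 10.6 per kb in ICRF-193 and the lowest of the 8 at 12.8 ± 1.10 in DMSO. Genes on the opposite strand share 1163 of the 1864 exonic bases of Fosl1 and 877 of the 1668 of Jund. Whether reads in the shared bases were counted is not known, so these levels and the rank of Fosl1 are uncertain. Fosb stood at 50.4 ± 41.3 in ICRF-193 and 30.9 ± 34.7 in DMSO, so that it was below Fosl1 in every ICRF-193 library and overlapped with it in DMSO.

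The make-up of the FOS family differed between the groups. Per kb, Fosl1 made up 9.39%, 17.9% and 23.4% of the FOS transcripts in ICRF-193 libraries A, B and C, against 1.91%, 5.23% and 6.30% in DMSO. Fosl2 made up 29.2%, 32.4% and 25.8% in ICRF-193, against 42.9%, 54.1% and 53.3% in DMSO. The shares of Fosl1 and of Fosl2 did not overlap between the groups, though the normalised reads of Fosl2 itself did. All FOS shares use the full 1864 exonic bases of Fosl1, of which 1163 are shared with Ccdc85b. Whether reads there were counted is not known, and the size of every share depends on it. Fos held 47.9 ± 4.44% in ICRF-193 and 38.6 ± 5.24% in DMSO (SD, n = 3 each), and these shares overlapped, with DMSO-A and ICRF-193-B both at 44.6%. The share of Fosb, 4.62% to 8.46% in ICRF-193 and 4.46% to 10.6% in DMSO, overlapped.

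**Figure D3:**
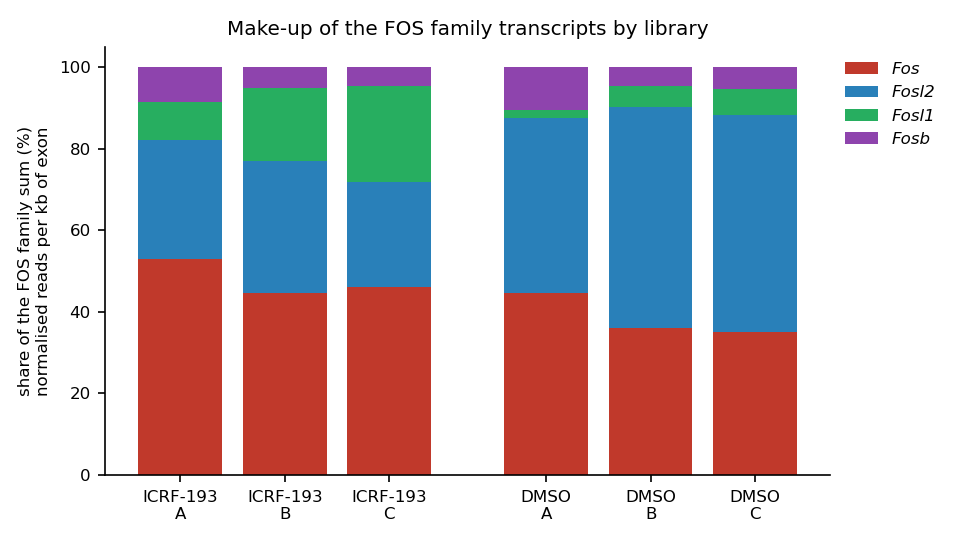
Share of each FOS gene (stacked bars, y axis in percent) in the FOS family sum of normalised reads per kb, for the 3 ICRF-193 and the 3 DMSO libraries. The length of Fosl1 includes the bases shared with Ccdc85b. The green Fosl1 part is 9.39% to 23.4% in ICRF-193 and 1.91% to 6.30% in DMSO, and the blue Fosl2 part is smaller in every ICRF-193 library.

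Set against all 8 subunits per kb, FOS transcripts were 19.9%, 10.7% and 8.59% in ICRF-193 libraries A, B and C, and 14.9%, 4.22% and 4.20% in DMSO. This share was higher in ICRF-193-A than in DMSO-A, and higher in ICRF-193-B and ICRF-193-C than in DMSO-B and DMSO-C. DMSO-A lay above ICRF-193-B and ICRF-193-C. Jund made up 36.4 ± 1.20% in ICRF-193 and 47.4 ± 0.44% in DMSO (SD, n = 3 each), and this share did not overlap between the groups. A share depends on the other subunits too, and the normalised reads of Jund itself overlapped between the groups. The lengths of Jund and Fosl1 include the bases shared with the opposite strand. The exact permutation test of 3 against 3 libraries cannot go below p = 0.10, so no p is given for shares. JUN family sums were 4444, 4430 and 5329 normalised reads per kb in ICRF-193 and 3694, 4889 and 4882 in DMSO, and overlapped.

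The genes whose profile over the 6 libraries was most like each called subunit were picked by the smallest Euclidean distance between centred log2(normalised reads + 1) values, among 11810 genes with a mean of at least 100. The 6 points share their libraries and groups. For Fosl1 these were Nkx2-9, a homeobox gene (distance 0.21), Cd80, a costimulatory ligand of T cells (0.38), and 1700007K13Rik (0.42). For Jun they were Notch1, which encodes a receptor (0.10), 4930506M07Rik (0.11) and Tmem43 (0.13). For Atf3 they were Palm3 (0.15), Itga10, a collagen-binding integrin (0.19), and Endod1 (0.20). Nkx2-9 averaged 522.6 ± 59.5 normalised reads in ICRF-193 and 68.1 ± 8.83 in DMSO (SD, n = 3 each), so it had the pattern of Fosl1 at a higher read count.

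The genes around AP-1 were counted by lists, in which called again means an adjusted p under 0.05 in the authors' deposited table. Counts at an unadjusted p under 0.05 are to be read against 11.5% of all genes higher and 5.38% lower at that threshold. Called genes are to be read against 5.97% higher and 1.26% lower. Those of limma-voom are to be read against 9.77% higher and 5.95% lower of the 14970 genes it tested. Of 19 other bZIP proteins that pair with or resemble AP-1 (BATF, ATF, MAF, BACH and NFE2 proteins) 0 were called, with 2 higher and 1 lower at an unadjusted p under 0.05, and their median log2 fold change was 0.09. Limma-voom called 1 of the 17 it tested higher, Mafk, which encodes a small MAF protein, and 0 lower. Of 12 MAP kinases and their activators 0 were called, 2 were higher and 1 lower at an unadjusted p under 0.05, the median was -0.09, and limma-voom called Map2k4, an activator of JNK, higher and Mapk3, which encodes ERK1, lower. Of 11 transcription factors that act on the Fos and Jun promoters, such as SRF and CREB, 0 were called, 1 was higher at an unadjusted p under 0.05, the median was -0.02, and limma-voom called 0. Of 7 genes for turnover of AP-1 proteins and transcripts 0 were called, 1 was higher and 1 lower at an unadjusted p under 0.05, the median was 0.02, and limma-voom called Fbxw7, a ubiquitin ligase subunit that targets JUN, higher and Det1, which acts in another ligase for JUN, lower. Transcript counts do not measure the activity of kinases.

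The other immediate early genes, 16 in number, gave 0 calls and a median log2 fold change of 0.36. At an unadjusted p under 0.05, 5 of them were higher and 0 lower, where 11.5% and 5.38% of all genes were. Limma-voom called 2 of the 16 higher, Egr3 and Nr4a1, and 0 lower, beside 9.77% and 5.95% of the genes it tested. The genes that limma-voom alone called are named after their values were seen. With the split term limma-voom called 9 higher and 1 lower, beside the 27.1% and 32.6% of all genes given above.

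Textbook AP-1 target genes had 23 of 24 members with reads, of which 3 were higher, 1 lower and 19 not called, with a median log2 fold change of 0.53. Plau, which encodes urokinase, averaged 588.6 ± 124 normalised reads in ICRF-193 and 163.5 ± 15.9 in DMSO, a log2 fold change of 1.85. Edn1, the endothelin precursor, averaged 702 ± 127 in ICRF-193 and 296 ± 99.3 in DMSO, a log2 fold change of 1.25. Mmp9, a gelatinase, averaged 749 ± 145 in ICRF-193 and 401 ± 129 in DMSO, a log2 fold change of 0.90. Spp1, which encodes osteopontin, was lower, at 3467 ± 151 in ICRF-193 and 10647 ± 297 in DMSO, a log2 fold change of -1.62 (SD, n = 3 for each of these values). Limma-voom also called 4 members, with Il11 in the place of Mmp9 (adjusted p = 0.0575). It called 2, Plau and Spp1, when ICRF-193-A, ICRF-193-B, ICRF-193-C, DMSO-B or DMSO-C was left out.

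The ATF4 branch and p53, both known to induce Atf3, had calls mostly of opposite direction. The part of either in the values of Atf3 was not tested. Of 10 genes of the ATF4 branch of the stress response, 7 were lower, 1 higher and 2 not called, with a median log2 fold change of -0.86. Over all genes 1.26% were called lower and 5.97% higher. Atf4 itself averaged 4187 ± 812 normalised reads in ICRF-193 and 11406 ± 2903 in DMSO, a log2 fold change of -1.45. Chac1, which degrades glutathione, averaged 88.3 ± 19.7 in ICRF-193 and 1531 ± 337 in DMSO, a log2 fold change of -4.12. Vldlr, a lipoprotein receptor, had a log2 fold change of -2.05, and Trib3, a pseudokinase, of -1.30. Limma-voom called 8 genes too, 6 lower and 2 higher, with Sesn2 (higher, adjusted p = 0.0283) in the place of Ddit3 (adjusted p = 0.0568). With 1 library left out it called 9 without DMSO-A, 5 without ICRF-193-A, 4 without DMSO-C, and 3 when ICRF-193-B, ICRF-193-C or DMSO-B was the one left out. Chac1, Vldlr and the asparagine synthetase gene Asns were called each time, and Atf4 without DMSO-A or ICRF-193-A only.

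Of 13 targets of p53, 10 were higher, 0 lower and 3 not called, with a median log2 fold change of 1.40; at an unadjusted p under 0.05, 12 were higher and 0 lower, where 11.5% and 5.38% of all genes were, and limma-voom called 9 of 12 higher and 0 lower. Trp73, a relative of p53, averaged 1461 ± 117 normalised reads in ICRF-193 and 129 ± 2.70 in DMSO, a log2 fold change of 3.50. Perp, a desmosome protein gene, averaged 12005 ± 2667 in ICRF-193 and 2597 ± 268 in DMSO, a log2 fold change of 2.21. Btg2, an antiproliferative gene, had a log2 fold change of 2.14, as had Mdm2, the ligase that destroys p53.

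**Figure D4:**
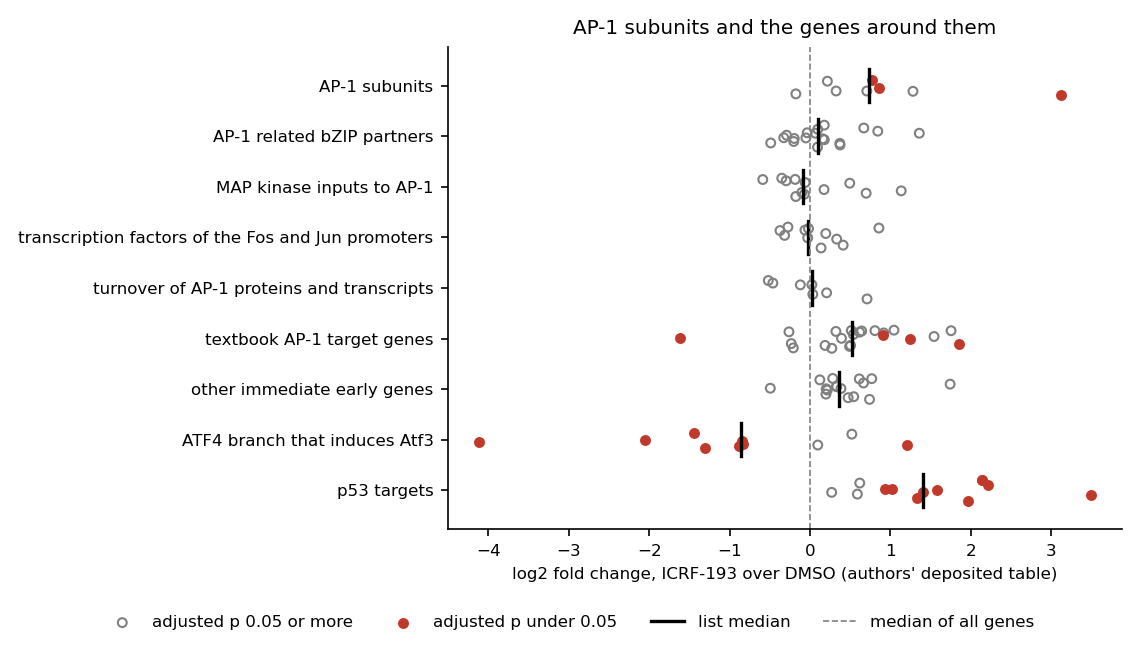
Log2 fold change, ICRF-193 over DMSO, in the authors' deposited table (x axis) of every gene with reads in both groups, by list (rows); filled red points have an adjusted p under 0.05, black bars are list medians and the dashed line is the median of all genes. The AP-1 subunits have a median of 0.74, the bZIP partners of 0.09, the ATF4 branch of -0.86 and the p53 targets of 1.40.

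Markers of other cells were counted beside these results. White blood cell markers (7 genes) summed to 1220, 1611 and 1647 normalised reads in ICRF-193 libraries A, B and C and to 662, 638 and 656 in DMSO, mostly from Cd68, a lysosomal gene that was called higher. The defining gene Ptprc was at 12.3 in ICRF-193 and 2.63 in DMSO, and Lyz2 was at 0.709 in ICRF-193 and 0.626 in DMSO. Keratinocyte markers (8 genes) summed to 293, 421 and 450 in ICRF-193 and to 166, 224 and 229 in DMSO, with Krt5 and Krt15 called higher and the basal keratinocyte factor Trp63 at 3.19 in ICRF-193 and 1.85 in DMSO. Called higher in the authors' deposited table were thus 1 of 7 white blood cell and 2 of 8 keratinocyte markers, beside 5.97% of all genes. The ES cell marker Zfp42 was called lower, the only call among 8 in the authors' deposited table, beside 1.26% of all genes called lower. In that table all 8 had a log2 fold change below 0 (-0.99 to -0.39). At an unadjusted p under 0.05, 3 were lower, beside 5.38% of all genes. Of 7 ES cell markers that limma-voom tested, 2 were called lower, beside 5.95% of all genes it tested. With the split term or without libraries A, 7 of 7 were called lower, where 32.6% and 29.8% of all genes were lower. The part of these cells in the values of Fosl1, Jun and Atf3 was not tested.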

How the data were processed

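Messenger RNA was compared between 3 ICRF-193 and 3 DMSO libraries of mouse ES cells. Per the submitters' processing notes, TopHat, HTSeq and DESeq were used with build mm9; versions, annotation and strand are not given in the sources used here. For each group the authors deposited a signal: reads divided by size factors and averaged, with no column per library. The authors' fold change is a ratio of these means with ICRF-193 on top, also deposited as its unshrunken log2. The deposited p-values come from the authors' test before and after Benjamini-Hochberg adjustment over 18759 genes.

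The deposited test is the main result: a count test had been planned only for counts per replicate, which the table does not give. Whole reads per library were worked back from the means, printed to 15 digits, by searching for all whole numbers that give the printed values. A single solution was found for 18378 genes (98.0%), including all 16787 with both means below 5000 and all 8 subunits, and 324 more were taken where 1 solution had a posterior of 0.99 or more given how far libraries differ. Another 57 genes of high level, Mdm2, Pou5f1, Fn1 and Vim among those in the lists, stayed unresolved and have no SD. Size factors recomputed from these reads differed by at most 0.0428%. Recovered totals leave out the 57 genes. Counting error is part of the spread between libraries.

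Limma-voom (limma 3.58.1, R 4.3.3) was run on the 14970 genes that had 10 or more reads in 3 or more libraries, with Benjamini-Hochberg adjustment, and recovery and fits were tested on simulated data. Values ± SD are over the 3 recovered libraries. The search for whole reads, the split term, the within-letter values, the interaction and the looser motifs were chosen after deposited values were seen. The subunits, the gene lists and the markers were chosen with earlier results of these data known. Beside the subunits, up to 4 called genes with the largest absolute log2 fold change were named per list; Ddit4 and other genes are given by count. Genes named outside this rule (markers, Ccdc85b, Asns, Ddit3, Sesn2, Il11 and those that limma-voom alone called) serve as checks and were chosen after their values were seen.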

Additional observations from a re-analysis of the deposited data

How the results depend on the processing

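The count of AP-1 subunits called, 3 in the authors' deposited table, was 1 at an adjusted p under 0.01, 6 by limma-voom once the split was a term, and 7 by limma-voom without both libraries A. Leaving out 1 library in limma-voom gave 1 to 3: 3 without ICRF-193-A (Fosl1, Jun, Atf3) or without DMSO-A (Fos, Fosl1, Jun), and 1 (Fosl1) without any of the other 4. The other settings gave 3, namely a threshold of 0.1, the deposited p-values readjusted over genes with a mean of at least 10 or 100, and limma-voom with size factors, TMM scaling, total reads or no filter. Calls over the whole table moved alongside, with 1357 in the deposited test, 854 at 0.01, 930 over genes with a mean of at least 100, 2353 in limma-voom, 8937 with the split term, 7771 without libraries A and 431 to 3124 with 1 library left out. Log2 fold changes turned direction in 3 cases: Fosl2 at -0.0284 without ICRF-193-A (-0.03 to 0.78 over the libraries left out), Junb at -0.0425 without DMSO-A (-0.04 to 0.40) and Jund at 0.0251 among libraries A; the cause was not tested. Over 20 alternatives Fosl1 stayed between 2.69 and 3.22 and was called in all 16 with a test, Jun between 0.56 and 0.91 and called in 11, and Atf3 between 0.70 and 1.01 and called in 10. The other thresholds and the readjusted p-values among these alternatives reuse the deposited fold changes and p-values, so they are no separate checks. Total read scaling shifted the median of all genes by 0.12 on the log2 scale and made 81.5% of limma-voom calls higher, against 62.1% with size factors; under each scaling 7 subunits were above 0 and Jund below. Of 128 counts over the wider lists, 55 moved by over 1.5 times. The deposited columns hold means and not counts. The 2 count models planned as alternatives were not run on the recovered reads, for which limma-voom was used instead. No paired analysis was possible because the columns carry no replicate numbers. Precision is limited by 3 libraries a group and, for Fosl1, by 22 to 30 reads per DMSO library.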
